A study of Sus scrofa with 29 samples.

Results

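VNN2, a vanin pantetheinase, and CDO1, cysteine dioxygenase, were the centre of a set of genes that handle cysteine, cysteamine and taurine in the inner lining of pig arteries. The set was made up of every array probe set whose platform symbol was VNN1, VNN2, CDO1, CSAD, CTH, CBS or ADO. Of these 7 symbols 4 had a probe set (VNN2, VNN1, CDO1 and CTH, with 1 probe set each), and no probe set carried the symbol CSAD, CBS or ADO, so 4 of the 23999 probe sets tested were members. VNN2 and CDO1 were selected on their training differences in these same arrays. Their differences between exercised and sedentary pigs are therefore given as a description, without a test. VNN1 and CTH were chosen by function and were tested.

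RNA came from the luminal surface of the brachial artery, which supplies the foreleg, and of the internal mammary artery (IMA) of the chest wall. Per the labels, the opened vessels were scraped under a lysis reagent, which enriches for endothelium without isolating it. Exercised pigs ran on a treadmill for 16 to 20 weeks, reaching 85 min a day on 5 days a week by week 10, and their arteries were taken 24 h after the last bout, while sedentary pigs were kept to their enclosures. The groups were 7 sedentary IMA, 8 exercised IMA, 7 sedentary brachial and 7 exercised brachial samples. These 29 arrays came from 15 healthy pigs, with both arteries from 14 and the IMA alone from exercised pig 12_2. Age, sex and breed are not given in the labels, and the labels name no genetic or drug intervention in any group. One label field of the 8 exercised IMA samples reads sedentary, against their titles and treatment tags, and the titles and tags were followed.

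Vanins are ectoenzymes that split pantetheine, a breakdown product of coenzyme A, into pantothenate (vitamin B5) and cysteamine. Cysteamine can be oxidised to hypotaurine by ADO. CDO1 oxidises cysteine to cysteine sulfinate, which CSAD decarboxylates to hypotaurine, the precursor of taurine, so both branches meet there. CBS and CTH lie upstream, in the transsulfuration route that makes cysteine from homocysteine, and both can also release hydrogen sulfide. Vanins are known from leukocytes as well as from epithelia, and CDO1 is known from liver and fat.

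All levels below are the deposited log2 probe set values, on which a step of 1 is a doubling. Levels of different genes are not compared with each other, because probe sets differ in brightness. A value after ± is the SD for a group mean and the SE for a log2 difference. Differences are limma estimates that treat the arteries of 1 pig as correlated, and they can depart slightly from subtracted group means. Rose, fell and differed are used of genes with an adjusted p under 0.05. As a check of the labelled tissue, means over all arrays of the 14 measured endothelial markers ran from 4.03 (KDR) to 13.97 (PECAM1), and all but KDR, VWF at 7.53 and FLT1 at 7.60 included, lay above every array median (7.13 to 7.28). The 12 measured smooth muscle markers also lay above every array median, from 7.70 (MYOCD) to 13.76 (ACTA2), so smooth muscle transcripts were present in the scrapes too. In such samples fewer cells of a type and less RNA per cell cannot be told apart.

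VNN2 was lowest in the brachial artery of exercised pigs and highest in the IMA of sedentary pigs. In the brachial artery its values ran from 7.51 through a median of 8.17 to 9.01 in the 7 sedentary pigs (mean 8.12 ± 0.50), and from 5.57 through 6.17 to 7.20 in the 7 exercised pigs (mean 6.32 ± 0.56). Every exercised pig lay below every sedentary pig there, with a gap of 0.30 between the groups. The fitted difference was -1.78 ± 0.28, or 3.44-fold lower in exercised pigs (95% interval -2.36 to -1.20). Over all probe sets 1.63% passed in this brachial training comparison, and in 0.604% the brachial groups did not overlap, but VNN2 was chosen from this comparison and nothing is read from those shares.

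In the IMA, VNN2 ran from 7.54 through 8.74 to 9.32 in the 7 sedentary pigs (mean 8.63 ± 0.62) and from 6.87 through 7.65 to 8.84 in the 8 exercised pigs (mean 7.81 ± 0.63). These groups overlapped: 7 of the 8 exercised pigs lay below the sedentary mean, and 2 lay below all sedentary pigs. The fitted difference was -0.82 ± 0.28, 1.76-fold lower in exercised pigs (95% interval -1.38 to -0.25). Over all probe sets 0.596% passed in the IMA training comparison, and 0.288% had IMA groups that did not overlap. VNN2 was in neither share. The brachial difference exceeded the IMA difference by -0.96 ± 0.34, which is likewise a description because both differences bear on how VNN2 was chosen.

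**Figure D1:**
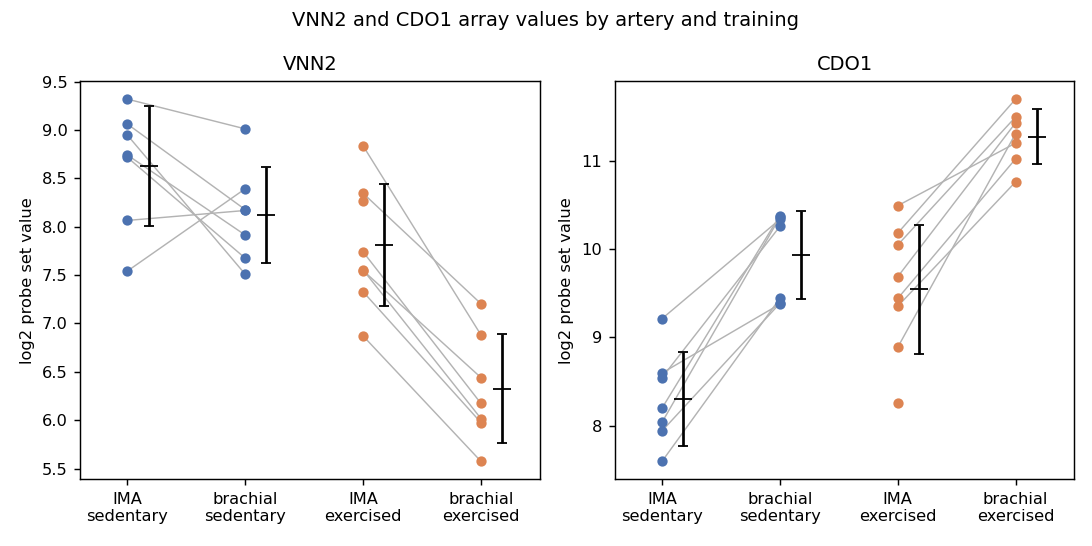
Deposited log2 probe set values of VNN2 (left) and CDO1 (right) in the 4 groups. Each point is 1 pig, grey lines join the arteries of a pig, and bars are the group mean ± SD. VNN2 of exercised brachial samples lies at 5.57 to 7.20, below all sedentary brachial samples, and CDO1 of exercised brachial samples lies at 10.76 to 11.70, above all sedentary brachial samples.

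VNN2 also differed between the arteries, a comparison within pigs that, averaged over training, was not used to choose it. The brachial value was below the IMA value in 12 of 14 pigs, with differences within a pig from -1.95 (pig 15_4) through a median of -1.12 to 0.85 (pig 11_1). Averaged over training the brachial artery was lower by -0.99 ± 0.17, or 1.98-fold (limma, adjusted p = 2.25e-05). The 2 pigs with more VNN2 in the brachial artery, 11_1 and 13_2, were both sedentary. Some leukocyte markers lay lower in the brachial artery as well, and others lay higher. Of 13 measured macrophage and monocyte markers 6 were lower and 2 higher. Of 7 neutrophil markers 2 were lower (1 with the arrays centred on their medians) and 0 higher. Of 10 T and B cell markers 2 were lower and 4 higher (2 higher after quantile normalization). Over all probe sets 22.5% were lower and 31.8% higher. Among the lower macrophage markers, C1QC gave -0.69 ± 0.11, TYROBP -0.46 ± 0.09 and AIF1 -0.39 ± 0.12, named after their values were seen. The 2 higher ones were MARCO, at 0.63 ± 0.04 and higher in 14 of 14 pigs, and SIGLEC1, at 0.27 ± 0.06 and higher in 13 of 14. With the macrophage mean as a covariate the artery difference of VNN2 was -1.04 ± 0.19 (adjusted p = 6.12e-05), and with the neutrophil mean it was -0.98 ± 0.19 (adjusted p = 0.000111). The artery difference of VNN2 was -0.51 ± 0.25 in sedentary pigs, of which 5 of 7 were lower, and -1.47 ± 0.24 in exercised pigs, of which 7 of 7 were lower, with a range from -1.95 to -1.11. This split by training shares its values with the training differences on which VNN2 was selected. It is therefore a description, as is the sedentary state of pigs 11_1 and 13_2.

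Ordered from high to low by mean, VNN2 went from sedentary IMA through sedentary brachial and exercised IMA to exercised brachial samples. Neighbouring means among the first 3 of these groups differed by less than the larger of their SDs, and only the step down to exercised brachial samples was larger. The same order held in the 8 pigs with the earliest label dates, with means of 8.57, 7.94, 7.61 and 6.06. In the 7 pigs with the latest dates the means were 8.71, 8.36, 8.02 and 6.52.

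The array holds 1 probe set for VNN1, the paralogue of VNN2. In the reference gene table the vanin genes stand side by side, in the order SLC18B1, VNN2, VNN3, VNN1 and TAAR1. VNN1 was dim, with all values between 5.28 and 6.00, below the array medians of 7.13 to 7.28. It ran from 5.30 through 5.72 to 5.84 in sedentary brachial samples (mean 5.67 ± 0.19) and from 5.56 through 5.66 to 6.00 in exercised ones (mean 5.74 ± 0.16). In the IMA it ran from 5.28 through 5.59 to 5.74 in sedentary pigs (mean 5.54 ± 0.19) and from 5.48 through 5.63 to 5.99 in exercised pigs (mean 5.65 ± 0.16). The 4 groups overlapped throughout, and neighbouring group means differed by less than their SDs.

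The training difference of VNN1 was 0.07 ± 0.10 in the brachial artery (95% interval -0.13 to 0.27; limma, adjusted p = 0.806) and 0.11 ± 0.10 in the IMA (-0.09 to 0.31; adjusted p = 0.716). The intervals leave room for a change of up to 0.31 upward or 0.13 downward on the log2 scale. Between arteries VNN1 gave 0.11 ± 0.06 (95% interval -0.01 to 0.23; adjusted p = 0.130), with 9 of 14 pigs higher in the brachial artery. That call depended on single pigs: without pig 17_1 the difference was 0.15 (adjusted p = 0.0242), and without pig 12_5 it was 0.14 (adjusted p = 0.0456). With signal over background not measured for single probe sets, how far these dim values track the transcript was not tested.

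CDO1 had its highest values in the brachial artery of exercised pigs and its lowest in the IMA of sedentary pigs. In the brachial artery it ran from 9.38 through a median of 10.26 to 10.38 in sedentary pigs (mean 9.94 ± 0.50) and from 10.76 through 11.31 to 11.70 in exercised pigs (mean 11.28 ± 0.31). The groups did not overlap, with a gap of 0.38. The fitted difference was 1.29 ± 0.27, 2.45-fold higher in exercised pigs (95% interval 0.74 to 1.85).

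In the IMA, CDO1 ran from 7.59 through 8.20 to 9.21 in sedentary pigs (mean 8.30 ± 0.53) and from 8.26 through 9.57 to 10.49 in exercised pigs (mean 9.54 ± 0.73). Of the 8 exercised pigs 7 lay above the sedentary mean and 6 above all sedentary pigs. The lowest exercised value came from pig 12_2, the pig with no brachial array. The fitted difference was 1.24 ± 0.27, 2.36-fold higher in exercised pigs (95% interval 0.70 to 1.78), and 1.42 without pig 12_2. Side by side, the brachial and IMA differences of CDO1 were 0.05 ± 0.33 apart, against -0.96 ± 0.34 for VNN2.

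By label date, the IMA difference of CDO1 was 0.78 ± 0.40 in the 8 pigs with the earliest dates, whose means were 8.64 in sedentary and 9.42 in exercised pigs, and 1.81 ± 0.26 in the 7 latest, whose means were 7.86 and 9.67. In the brachial artery the corresponding differences were 1.18 ± 0.44 and 1.50 ± 0.26. The direction was the same in both periods and both arteries, and the difference between periods was not tested.

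Between arteries CDO1 was higher in the brachial artery in 14 of 14 pigs, and 15.7% of all probe sets had 1 sign in all 14 pigs. Differences within a pig ran from 0.71 (pig 11_3) through a median of 1.55 to 2.42 (pig 10_1). The average was 1.66 ± 0.17, 3.16-fold (limma, adjusted p = 2.46e-09), with 1.63 ± 0.24 in sedentary and 1.69 ± 0.23 in exercised pigs. Ordered from low to high by mean, CDO1 went from sedentary IMA through exercised IMA and sedentary brachial to exercised brachial samples. Exercised IMA and sedentary brachial means differed by less than the larger of their SDs, and the other 2 steps were larger than that.

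Differences between the arteries were common on these arrays. Over all probe sets 54.3% passed, with 31.8% higher and 22.5% lower in the brachial artery, so passing there is no particular feature of VNN2 or CDO1. With the arrays centred on their medians the shares were 39.3% higher and 17.4% lower. The 9 hybridization control probe sets, which measure spiked transcripts and not pig RNA, were also higher on the brachial array in 14 of 14 pigs, by a median of 0.58 (range 0.42 to 1.01). Artery and array handling therefore cannot be told apart. When the arrays were centred on their medians the artery differences were -0.94 ± 0.18 for VNN2 (adjusted p = 6.10e-05) and 1.71 ± 0.17 for CDO1 (adjusted p = 1.48e-09).

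CTH, cystathionine gamma-lyase, makes cysteine in the last step of transsulfuration. In the brachial artery it ran from 6.85 through 7.69 to 8.20 in sedentary pigs (mean 7.66 ± 0.41) and from 6.70 through 7.29 to 8.50 in exercised pigs (mean 7.39 ± 0.58). In the IMA it ran from 7.32 through 7.98 to 8.85 in sedentary pigs (mean 8.01 ± 0.48) and from 7.25 through 7.64 to 8.66 in exercised pigs (mean 7.74 ± 0.46). All groups overlapped, and neighbouring group means differed by less than their SDs.

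CTH did not pass for training in either artery: the difference was -0.27 ± 0.25 in the brachial artery (95% interval -0.77 to 0.23; limma, adjusted p = 0.661) and -0.27 ± 0.24 in the IMA (-0.75 to 0.22; adjusted p = 0.722). Between arteries it was lower in the brachial artery in 11 of 14 pigs, by -0.35 ± 0.15 or 1.27-fold (adjusted p = 0.0481). Sedentary pig 11_1 stood lowest, at -2.0, and without it the difference was -0.21 (adjusted p = 0.147). The call held only on leaving out pig 10_2, 12_5, 13_2 or 15_4 and was lost on leaving out any 1 of the other 11 pigs.

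**Figure D2:**
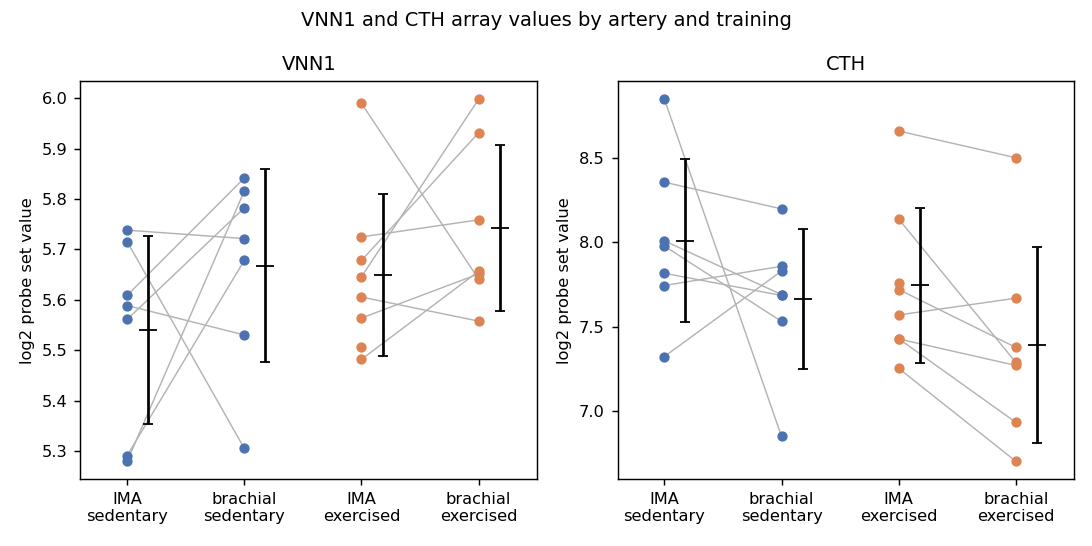
Deposited log2 probe set values of VNN1 (left) and CTH (right) in the 4 groups, drawn as points per pig with lines joining the arteries of a pig and bars for the group mean ± SD. The groups overlap for both genes, all VNN1 values lie between 5.28 and 6.00, and the steepest CTH line is that of pig 11_1, at -2.0.

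Once the group means were subtracted, correlations between members over the arrays were weak to moderate. Over the 29 arrays of 15 pigs, VNN2 and CDO1 had a Pearson correlation of -0.42, CDO1 and CTH 0.38, CDO1 and VNN1 0.21, VNN2 and CTH -0.19, VNN1 and CTH 0.06 and VNN2 and VNN1 -0.01. These correlations share arrays and pigs and are descriptions without a test. By the same measure the named genes most like VNN2 were ODF3B (0.70), JARID2 (0.69), ZNF12 (0.68), TBXAS1 (0.62) and CD300C (0.61), and the most opposed were LOC102164161 (-0.74), LY96 (-0.72) and POLD4 (-0.72). Genes known from myeloid cells stood at both ends: TBXAS1, thromboxane synthase, and CD300C, a surface receptor, among the most similar, and LY96, a co-receptor for bacterial lipopolysaccharide, among the most opposed. Their training differences in the brachial artery were -0.69 ± 0.24 for TBXAS1, -0.51 ± 0.18 for CD300C and 0.27 ± 0.11 for LY96. In the IMA, where VNN2 gave -0.82, they were 0.26 ± 0.23, -0.07 ± 0.18 and 0.15 ± 0.11.

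For CDO1 the most similar were CMC1 (0.80), TRMT112 (0.69), TRIM59 (0.68), LANCL2 (0.67) and MRM2 (0.67), and the most opposed were VSIG2 (-0.65), ASS1 (-0.64) and MRAS (-0.63). ASS1, argininosuccinate synthase, serves arginine recycling for nitric oxide synthesis in endothelium. It had training differences of 0.37 ± 0.15 in the brachial artery and 0.42 ± 0.15 in the IMA. The 5 genes most like CDO1 had brachial training differences from -0.09 (MRM2) to 0.14 (CMC1), far from the 1.29 of CDO1 itself.

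The routes around VNN2 and CDO1 were covered by 6 lists that together hold 84 genes, of which 48 had a probe set and 36 had none by symbol. Apart from VNN2 and CDO1, 0 of 46 passed for training in the brachial artery by limma, where 1.63% of all probe sets passed, so that a count of 0 in a list of this size is near the background. An unadjusted p under 0.05 was seen for 4 of the 46, against 15.4% of all probe sets. In the IMA 0 of 46 passed, against 0.596% of all probe sets, and 6 were under an unadjusted p of 0.05, against 12.3%. The median difference of the 46 genes was 0.03 in the brachial artery and 0.01 in the IMA, against 0.01 over all probe sets in each.

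Around VNN2, the pantetheine and coenzyme A list had 11 of 18 genes on the array. DCAKD, which carries a dephospho-coenzyme A kinase domain, gave 0.25 ± 0.09 in the brachial artery and 0.21 ± 0.09 in the IMA. SLC5A6, a transporter of pantothenate and biotin, gave 0.33 ± 0.15 in the brachial artery and 0.19 ± 0.14 in the IMA. ENPP1, an ectoenzyme that can cleave pyrophosphate bonds, gave -0.16 ± 0.12 and -0.28 ± 0.12. None of these training values passed after adjustment. The pantothenate kinases PANK1, PANK2 and PANK4, which open coenzyme A synthesis, lay between -0.15 and 0.03 in both arteries.

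Around CDO1, the cysteine oxidation and taurine list had 5 of 12 genes on the array. The other 4 lay between -0.12 and 0.12 for training in both arteries. SUOX, the sulfite oxidase that disposes of sulfite at the end of this route, gave 0.12 ± 0.11 in the brachial artery and 0.00 ± 0.10 in the IMA. The aminotransferases GOT1 and GOT2, which can turn cysteine sulfinate towards pyruvate and sulfite, gave -0.08 ± 0.09 and -0.01 ± 0.07 in the brachial artery. FMO1, a monooxygenase that can oxidise hypotaurine to taurine, gave -0.00 ± 0.48 and was too variable to place.

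In the methionine cycle and transsulfuration list, 10 of 19 genes were measured. MAT2A, which makes S-adenosylmethionine, gave -0.32 ± 0.11 in the brachial artery and -0.25 ± 0.11 in the IMA (adjusted p = 0.129 and 0.322), and spermidine synthase SRM gave -0.23 ± 0.14 and -0.22 ± 0.14. Among 9 of 12 genes for cystine, cysteine and glutamate uptake, SLC3A1, the heavy chain of a cystine transporter, gave -0.39 ± 0.14 in the brachial artery (adjusted p = 0.164) and -0.02 ± 0.14 in the IMA. The other SLC3A1 probe set gave 0.04 ± 0.10 in the brachial artery and 0.15 ± 0.10 in the IMA. The glutamate transporter SLC1A2 gave -0.95 ± 0.48 and -0.51 ± 0.46, again without passing. Among 9 of 16 genes of glutathione synthesis and turnover, GGT7 gave -0.34 ± 0.13 and glutathione reductase GSR 0.20 ± 0.09 in the IMA, and among 5 of 8 genes of hydrogen sulfide oxidation the largest value was that of SELENBP1 in the IMA, at 0.38 ± 0.26.

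**Figure D3:**
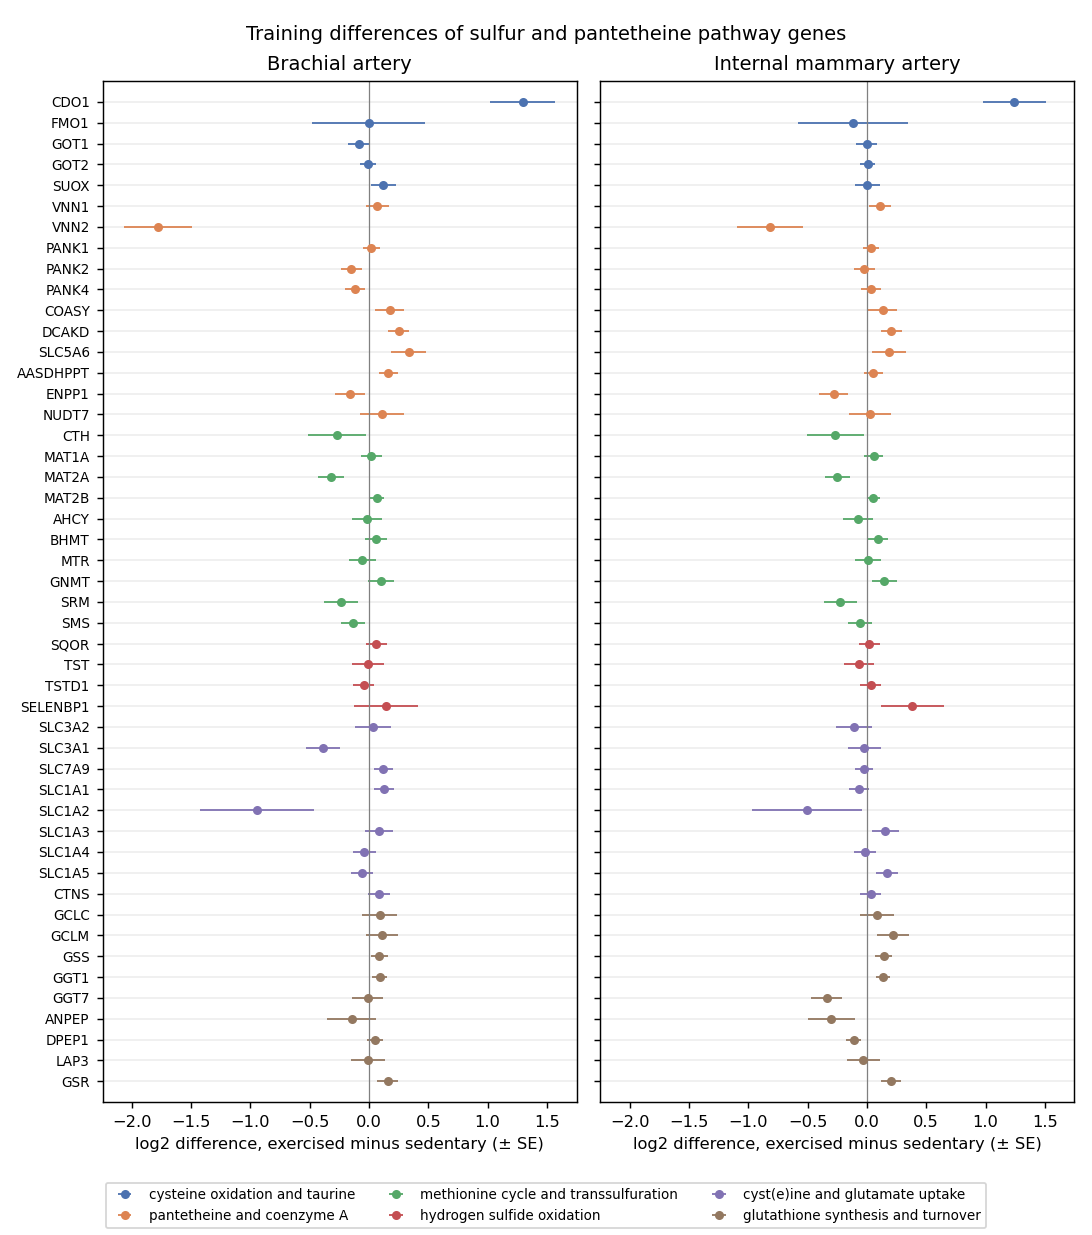
Training differences (exercised minus sedentary, log2, ± SE, from limma) of the measured pathway genes in the brachial artery (left) and the IMA (right), coloured by list. VNN2 at -1.78 and CDO1 at 1.29 in the brachial artery were chosen for their position, and 0 of the other 46 genes passed in either artery.

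Between the arteries 26 of the 48 pathway genes passed, 14 higher and 12 lower in the brachial artery, a share close to the 54.3% of all probe sets. With the arrays centred on their medians 22 passed, 16 higher and 6 lower, and CTH, AASDHPPT, TSTD1, GCLC, GCLM and LAP3 no longer passed. Without the replicate block 18 passed, 12 higher and 6 lower. The median difference was 0.02, against 0.03 over all probe sets. In the cysteine oxidation and taurine list CDO1 was the 1 gene of 5 that passed. FMO1 gave 0.41 ± 0.29, and GOT1, GOT2 and SUOX lay between -0.02 and 0.06.

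Beside VNN2, 4 of the 11 pantetheine and coenzyme A genes passed. ENPP1 was lower in the brachial artery in 14 of 14 pigs (-0.44 ± 0.08, adjusted p = 1.57e-05), and AASDHPPT, which attaches the phosphopantetheine arm to carrier proteins, was lower by -0.13 ± 0.05. DCAKD and SLC5A6 were higher, by 0.16 ± 0.05 and 0.22 ± 0.09. VNN2 thus had the largest artery difference of the list, 1.98-fold against at most 1.36-fold for the others.

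Upstream of CDO1, the uptake list had 5 genes higher and 2 lower in the brachial artery. SLC3A2, the heavy chain that pairs with the cystine-glutamate exchanger among others, was higher in 14 of 14 pigs (1.08 ± 0.09, adjusted p = 1.62e-10), and CTNS, which exports cystine from lysosomes, was higher in 14 of 14 (0.55 ± 0.06, adjusted p = 4.02e-09). SLC3A1 was lower in 14 of 14 pigs (-0.93 ± 0.09, adjusted p = 7.26e-10). The transporters SLC1A1, SLC7A9 and SLC1A4 were higher by 0.32, 0.28 and 0.28, and SLC1A5 was lower by -0.25. CTNS, SLC1A1, SLC7A9 and SLC1A4 were dim, with every group mean below every array median. How far their values track the transcripts was not tested. After quantile normalization SLC1A1 gave 0.26 and SLC7A9 0.18, and both still passed.

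In the methionine list AHCY, BHMT, SRM and SMS were higher in the brachial artery, by 0.18 to 0.27, and MTR and CTH were lower, by -0.35 each. In the hydrogen sulfide list SELENBP1, a methanethiol oxidase, was lower in 14 of 14 pigs (-0.97 ± 0.16, adjusted p = 1.37e-05), and TSTD1 was lower by -0.14 ± 0.06. In the glutathione list GGT1, which frees cysteinylglycine outside the cell, and DPEP1, which splits it, were higher by 0.25 ± 0.04 and 0.19 ± 0.04. GCLC, GCLM and LAP3 were lower, by -0.25, -0.23 and -0.22. For GCLM, LAP3 and MTR, probe sets of 1 gene passed in opposite directions, so their direction is uncertain. GCLC probe sets ran from -0.32 to 0.11, and those above 0 did not pass. The probe sets standing for GSR and GSS did not pass, but another of each was lower, at -0.97 ± 0.06 and -0.39 ± 0.08. BHMT, TSTD1, DPEP1 and GCLM were dim, with every group mean below every array median.

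**Figure D4:**
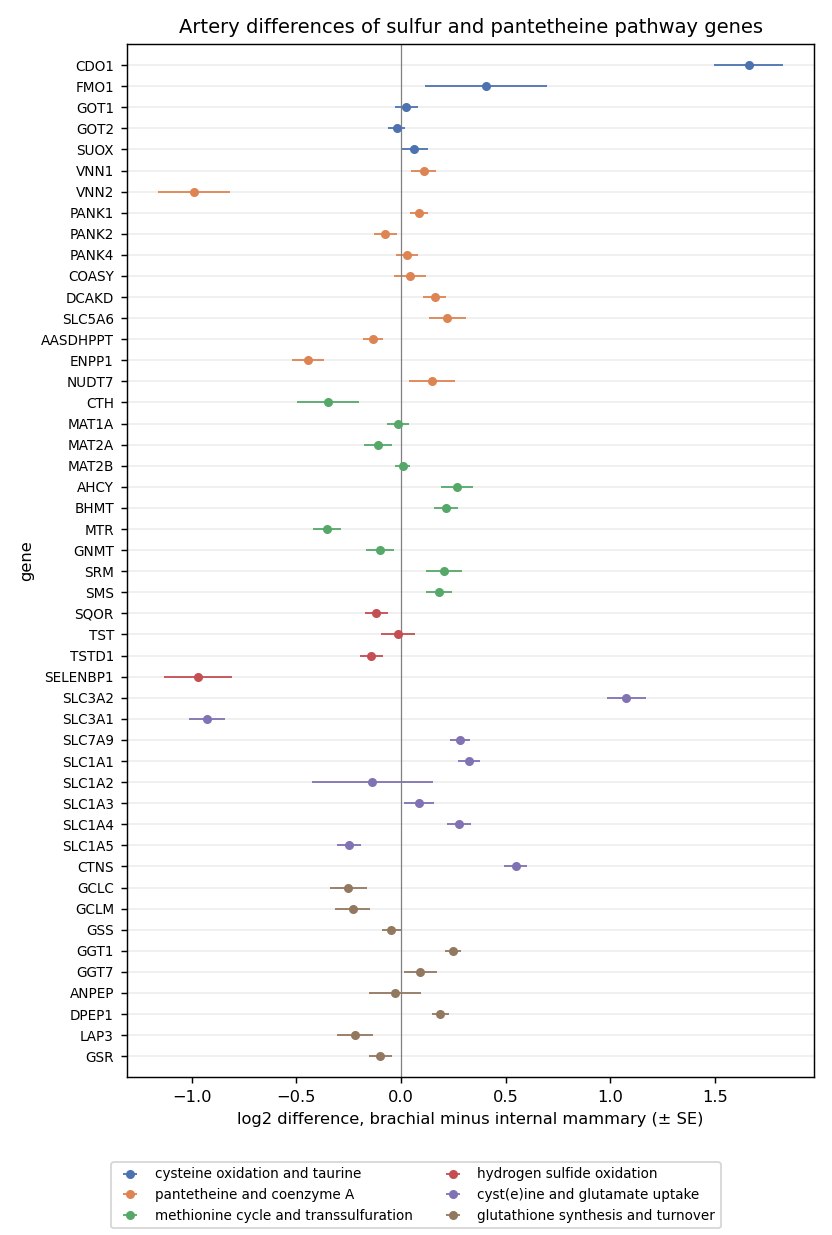
Artery differences (brachial minus IMA, log2, ± SE, from limma) of the 48 measured pathway genes, coloured by list. CDO1 at 1.66 and SLC3A2 at 1.08 lie farthest right, and VNN2 at -0.99, SELENBP1 at -0.97 and SLC3A1 at -0.93 farthest left.

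Markers of other cell types were set beside these results, since vanins are known from leukocytes and CDO1 from fat. Whether any of these cell types underlies the VNN2 or CDO1 differences was not tested. Of 18 macrophage and monocyte markers 13 were measured, LAPTM5 and C1QC among them. In the brachial artery their mean was 8.32 (7.93 to 8.95) in sedentary and 7.91 (7.72 to 8.17) in exercised pigs, a difference of -0.41, in the same direction as VNN2. There 3 of the 13 fell, C1QC by -0.81 ± 0.18, TYROBP by -0.66 ± 0.16 and FCER1G by -0.88 ± 0.21, named here after their values were seen, where 1.63% of all probe sets passed. In the IMA, where VNN2 was also lower in exercised pigs, the marker means were 8.31 (8.02 to 8.76) and 8.26 (7.90 to 8.61), and 0 of 13 passed by limma, with 1 under an unadjusted p of 0.05. With the macrophage mean as a covariate, the training difference of VNN2 was -1.91 ± 0.34 in the brachial artery and -0.83 ± 0.28 in the IMA, and that of CDO1 was 1.23 ± 0.33 and 1.23 ± 0.27.

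Of 16 neutrophil markers 7 were measured, and means over all arrays were 5.34 for S100A8, 5.20 for S100A9 and 7.09 for FCN1, all below every array median, and 7.22 for PGLYRP1. The list mean was 5.73 (5.54 to 6.08) in sedentary and 5.69 (5.57 to 5.81) in exercised brachial samples. In the IMA it was 6.32 (5.39 to 8.59) in sedentary and 5.95 (5.56 to 6.60) in exercised pigs. The value of 8.59 belonged to pig 15_1, whose VNN2 value of 8.74 was the median of its group. With this mean as a covariate VNN2 gave -1.78 ± 0.29 in the brachial artery and -0.81 ± 0.29 in the IMA. Most of these markers were dim, so their mean may not follow neutrophil content, and a neutrophil source of VNN2 was not tested.

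Of 14 adipocyte markers 11 were measured, CFD and PNPLA2 among them, and ADIPOQ and PPARG, at 4.51 and 4.22, lay below every array median. The list mean was 7.68 (7.47 to 7.85) in sedentary and 7.75 (7.60 to 7.92) in exercised brachial samples, and 7.64 (7.54 to 7.73) and 7.60 (7.44 to 7.69) in the IMA. For training 0 of 11 passed by limma in either artery, with 1 under an unadjusted p of 0.05 in the brachial artery and 2 in the IMA. Between arteries 7 were higher and 1 lower in the brachial artery, against 31.8% and 22.5% of all probe sets. After quantile normalization 4 were higher and 1 lower. With the adipocyte mean as a covariate CDO1 gave training differences of 1.31 ± 0.28 in the brachial artery and 1.23 ± 0.27 in the IMA, and an artery difference of 1.69 ± 0.18 (adjusted p = 1.74e-08), while the artery difference of VNN2 was -0.86 ± 0.18 (adjusted p = 0.000284).

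**Figure D5:**
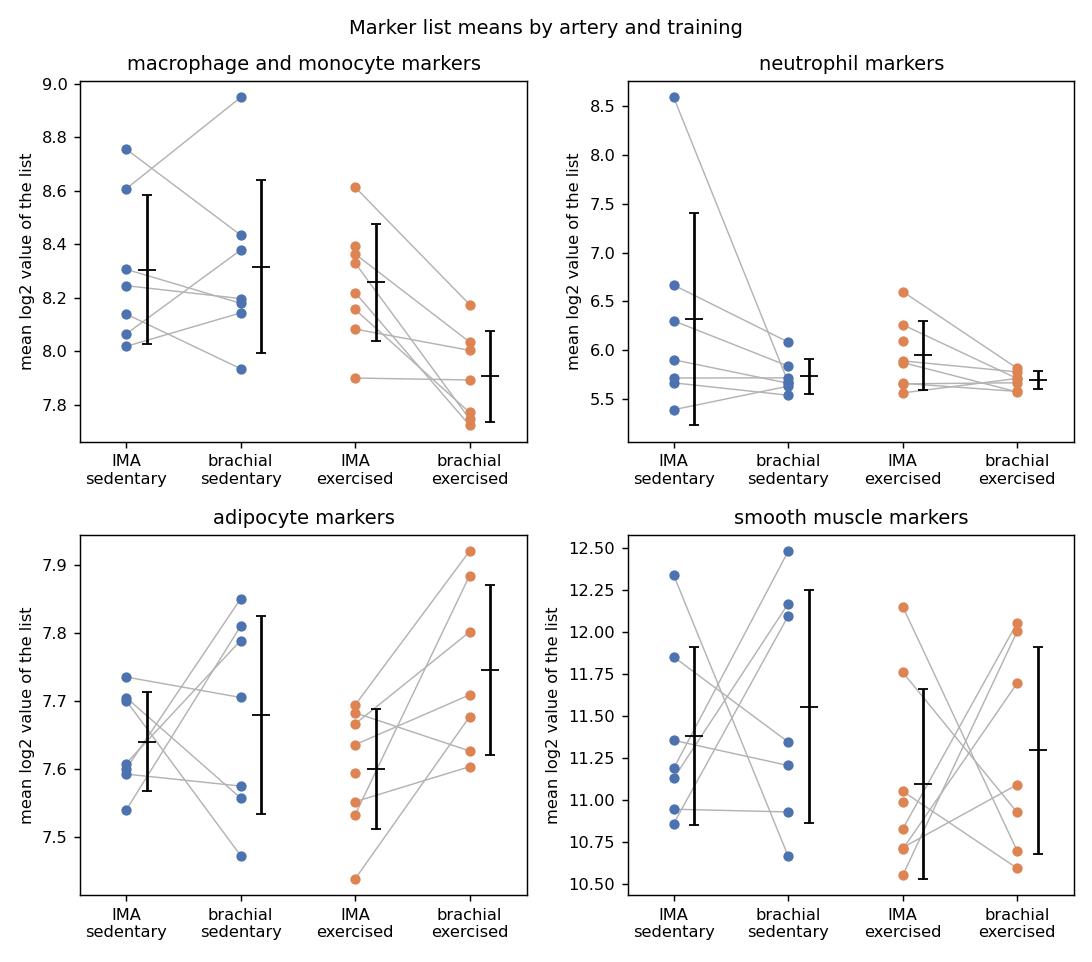
Mean log2 value of 4 marker lists in the 4 groups, with 1 point per pig, lines joining the arteries of a pig and bars for the mean ± SD. The macrophage and monocyte mean of exercised brachial samples lies at 7.72 to 8.17 against 7.93 to 8.95 in sedentary ones, and 1 sedentary IMA sample has a neutrophil mean of 8.59.

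Among the remaining lists, the endothelial mean lay between 10.63 and 10.75 in the 4 groups. For training 0 of 14 markers passed by limma, with 1 under an unadjusted p of 0.05 in the brachial artery and 3 in the IMA. Between arteries 4 were higher and 2 lower in the brachial artery, against 31.8% and 22.5% of all probe sets. Smooth muscle means were lower in exercised pigs by -0.26 in the brachial artery and -0.29 in the IMA. For training 0 of 12 passed, with 0 under an unadjusted p of 0.05, and between arteries 2 were higher and 2 lower, again against 31.8% and 22.5%. The fibroblast mean was higher in the brachial artery by 0.42 in sedentary and 0.49 in exercised pigs. Of its 8 markers 2 passed as higher and 0 as lower, against the same 31.8% and 22.5% of all probe sets. The 2 were DPT at 2.23 ± 0.20 and FAP at 1.16 ± 0.21. The others lay between -0.14 and 0.26. Among 10 T and B cell markers BLNK fell in the brachial artery (-0.96 ± 0.19), where 1.63% of all probe sets passed. CD79B rose in the IMA (1.46 ± 0.31), where 0.596% of all probe sets passed. In exercised pigs the list mean was lower by -0.18 in the brachial artery and higher by 0.18 in the IMA. Of 4 red cell markers 0 passed for training by limma, with 0 under an unadjusted p of 0.05 in either artery. The 28S/18S ratio of the RNA, given in the labels, averaged 1.19 ± 0.08 and 1.33 ± 0.08 in sedentary and exercised IMA samples and 1.38 ± 0.20 and 1.41 ± 0.17 in the brachial samples. With that ratio as a covariate the IMA training difference of VNN2 was -0.71 ± 0.30 and that of CDO1 was 1.20 ± 0.29.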

How the data were processed

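Single-colour porcine oligonucleotide arrays of 29 arterial scrapes were analysed. The authors deposited log2 probe set values. The package affy is named in the submitters' processing notes, and its version, the summary method and the normalization are not given in the sources used here. Of 24123 probe sets 124 were controls, and of the 23999 tested 10069 had 1 symbol, 198 several and 13732 none. The model, in limma 3.58.1 under R 4.3.3, had 4 group means, pig as a random block (consensus correlation 0.255), moderated tests and Benjamini-Hochberg adjustment at 0.05, and the code recovered known changes in simulated arrays. Pairing comes from the pig identifiers in the labels, and own-pig arteries correlated at a median of 0.19, against -0.02 between pigs. A listed gene was represented by its probe set with the highest mean. Named were the members, the passing genes of each pathway list or those with the smallest p, and genes most like VNN2 or CDO1. Members and lists were chosen with earlier results of these data known. Alternatives were other blocks, scaling, filters, priors, weights, covariates and pigs left out. The precision is set by the number of arrays, which have no sequencing depth.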

Additional observations from a re-analysis of the deposited data

How the results depend on the processing

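VNN2 and CDO1 kept the direction of each training and artery difference under all 16 alternatives and on leaving out each pig. Because both genes were selected on training differences in these same arrays, the kept training direction is no independent support. VNN2 ranged from -1.91 to -1.69 for training in the brachial artery and from -1.03 to -0.69 in the IMA, and CDO1 from 1.18 to 1.50 and from 0.78 to 1.81. Leaving out pigs gave -1.92 to -1.63, -0.998 to -0.682, 1.19 to 1.37 and 1.10 to 1.42. Their artery calls also held, with the highest adjusted p at 0.00914 for VNN2 and 0.000409 for CDO1. Without the replicate block the artery differences were -0.997 and 1.68, and with pig as a fixed replicate block -0.96 and 1.59. CTH lost its artery call under 11 of 16 alternatives, including no replicate block (-0.35, adjusted p = 0.0947).

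VNN1 turned to -0.0708 for brachial training in the first 8 pigs and to -0.0544 between arteries in the last 7 pigs. Its artery difference passed in the first 8 pigs (0.23) and with arrays centred on their medians (0.16). It had no value with the dimmest 33.3% of probe sets left out. CTH turned to 0.025 and 0.25 for brachial and IMA training in the last 7 pigs. Of the pathway genes 1 passed for brachial training with the smooth muscle covariate, and 0 to 1 on leaving out pigs, the 1 being without pig 12_3. The artery count of 26 was 16 in the last 7 pigs and 21 to 25 on leaving out pigs. It was 30 when the probe set with the smallest p stood for a gene. The causes of these changes were not tested. No scanner files were used here, so signal over background limits the dim VNN1 values to an unknown degree.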
